A study of Mus musculus with 36 samples.

Results

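The 8 genes described here encode enzymes that build triglyceride from glycerol 3-phosphate and fatty acyl-CoA: *Gpam*, *Agpat2*, *Agpat3*, *Lpin1*, *Lpin2*, *Lpin3*, *Dgat1* and *Dgat2*. They were taken by gene symbol from a table of estimated RNA-seq counts, in which 54347 genes were listed. All 8 were found and all 8 were among the 15340 genes tested, those with a CPM (count scaled to the TMM-adjusted library size) above 1 in at least 6 of the 36 libraries. Under 6 h of butyrate, *Dgat2* rose in all 4 cell types, *Lpin3*, *Agpat2* and *Agpat3* fell in all 4 (*Agpat3* in macrophages not when libraries were scaled by their totals alone, log2 fold change -0.05, adjusted p = 0.359), and *Gpam* and *Lpin2* moved in opposite directions in adipocytes and hepatocytes. No member passed the test under bOHB in any cell type.

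The glycerol 3-phosphate route adds fatty acyl chains to a glycerol backbone one after another. *Gpam* encodes the mitochondrial glycerol-3-phosphate acyltransferase that attaches the first chain and makes lysophosphatidic acid. *Agpat2* and *Agpat3* encode acyltransferases of the next step, which yields phosphatidic acid. Loss of *Agpat2* is a known cause of congenital lipodystrophy. The lipins, *Lpin1*, *Lpin2* and *Lpin3*, are phosphatidic acid phosphatases that release diacylglycerol, and lipin 1 also acts in the nucleus as a transcriptional coactivator. *Dgat1* and *Dgat2* encode the diacylglycerol acyltransferases of the last step, enzymes of unrelated sequence that both sit in the endoplasmic reticulum, and DGAT2 is also found at lipid droplets. Adipocytes store triglyceride in large droplets, hepatocytes store it or export it in lipoproteins, and macrophages and muscle cells store smaller amounts.

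The libraries came from primary cells of male mice labelled C57Bl/6, with 3 libraries in each of 12 groups. Cells received PBS (control), 5 mM β-hydroxybutyrate (bOHB) or 5 mM butyrate (labelled butyric acid) for 6 h. Per the study's materials, both were sodium salts, and bOHB was the R form. bOHB is the main circulating ketone body, and its acid differs from butyric acid by a hydroxyl group on the carbon chain. Adipocytes were grown from stromal vascular cells of inguinal fat pooled from 3 to 4 mice and differentiated with isobutylmethylxanthine, dexamethasone, insulin and rosiglitazone, an agonist of the adipogenic receptor PPARγ. Macrophages were grown from femoral bone marrow in L929-conditioned medium, myotubes were differentiated from hindlimb myoblasts, and hepatocytes were isolated by liver perfusion. Adipocytes and macrophages were treated in the same kind of serum-containing medium, myotubes in differentiation medium and hepatocytes in Williams E medium. The study's methods name the hepatocyte donors as C57BL/6NHsd and say that some primary cells were obtained at another site, without saying which. Differences between cell types therefore cannot be told apart from differences of medium, isolation, substrain and site. Nothing in the sources says that the 3 libraries of a group came from separate cultures or animals, so the p-values measure the spread between these samples, which may be technical. In bulk RNA, fewer cells of a type and less RNA per cell cannot be told apart.

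*Agpat2*, *Agpat3* and *Lpin3* are shown by their promoters because they fell under butyrate in all 4 cell types. Each window runs from 250 bases before to 50 after a transcription start in RefSeq (GRCm38.p6), written 5′ to 3′ on the gene's own strand, with matches to any searched motif in capitals. The windows are chr2:26604368-26604667 on the minus strand for *Agpat2*, chr10:78351651-78351950 on the minus strand for *Agpat3* and chr2:160880420-160880719 on the plus strand for *Lpin3*.
Agpat2: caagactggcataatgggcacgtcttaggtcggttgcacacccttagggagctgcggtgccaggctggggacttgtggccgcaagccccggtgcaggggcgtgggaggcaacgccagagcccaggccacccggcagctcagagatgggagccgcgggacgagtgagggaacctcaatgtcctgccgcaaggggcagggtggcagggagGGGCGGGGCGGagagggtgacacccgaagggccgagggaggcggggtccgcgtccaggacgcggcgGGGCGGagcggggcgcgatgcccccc
Agpat3: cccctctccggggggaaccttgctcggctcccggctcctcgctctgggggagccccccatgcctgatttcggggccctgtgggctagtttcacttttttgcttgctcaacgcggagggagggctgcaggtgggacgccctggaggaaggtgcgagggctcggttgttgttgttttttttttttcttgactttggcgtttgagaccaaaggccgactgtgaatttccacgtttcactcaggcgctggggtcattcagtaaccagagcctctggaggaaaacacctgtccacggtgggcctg
Lpin3: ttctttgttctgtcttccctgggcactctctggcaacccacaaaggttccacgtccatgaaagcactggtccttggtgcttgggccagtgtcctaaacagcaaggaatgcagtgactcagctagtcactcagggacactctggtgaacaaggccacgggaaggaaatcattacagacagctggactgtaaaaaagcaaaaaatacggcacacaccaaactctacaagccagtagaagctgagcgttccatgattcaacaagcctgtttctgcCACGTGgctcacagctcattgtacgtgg
The motifs searched on both strands were the GC box GGGCGG, the CCAAT box CCAAT, the TATA box TATAAA and the E-box CACGTG. *Agpat2* held 3 GC boxes, of which 2 share a base in 1 run of capitals, the *Lpin3* window held 1 E-box, which lay after the start, and *Agpat3* held none of the 4 motifs. *Lpin3* has another RefSeq start, whose window at chr2:160887918-160888217 is not printed and held 1 GC box and no E-box. Of all 32851 promoter windows of this length in the table, 35.7% held a GC box, 37.4% a CCAAT box, 13.6% a TATA box and 7.15% an E-box. The 3 printed windows were 72%, 59% and 50% G or C, and the median of all windows was 52.7%. These matches are descriptions of the letters in the windows, and 6 of the 8 members had an entry.

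The lipins share a catalytic motif, Asp-X-Asp-X-Thr, whose codons are in capitals in the coding sequences below (GRCm38 with the GENCODE M21 annotation). They are shown because the 3 genes, which encode the same motif, are compared under butyrate below. The stretches lie at chr12:16547488-16547514, minus strand, exon 16 of the transcript used for *Lpin1*, chr17:71243408-71243434, plus strand, exon 15 for *Lpin2* and chr2:160903723-160903749, plus strand, exon 15 for *Lpin3*.
Lpin1: atctcaGATATCGATGGGACCatcaca
Lpin2: atctctGACATCGACGGAACAataacc
Lpin3: atctctGACATAGATGGCACCatcacc
Over these 27 bases *Lpin1* differed from *Lpin2* at 7 positions and from *Lpin3* at 5, and *Lpin2* differed from *Lpin3* at 5. No other gene shared a stretch of 150 bases or more at 95% identity or above with a coding transcript of any member, lipins included.

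For *Dgat2*, the member raised in every cell type, the study's qPCR primers were placed on the genome. The forward primer is in exon 5 of the protein-coding transcript at chr7:99158893-99158913 and the reverse primer in exon 6 at chr7:99158295-99158316, on a gene read from the minus strand (GRCm38).
Dgat2 forward: ttcctggcataaggccctatt
Dgat2 reverse: agtctatggtgtctcggttgac
The members lie on 7 chromosomes in this build: *Dgat1* (ENSMUSG00000022555) at chr15:76502015-76511953, minus strand, *Dgat2* (ENSMUSG00000030747) at chr7:99153658-99182719, minus strand, *Gpam* (ENSMUSG00000024978) at chr19:55067268-55127238, minus strand, *Agpat2* (ENSMUSG00000026922) at chr2:26593057-26604417, minus strand, *Agpat3* (ENSMUSG00000001211) at chr10:78269178-78352489, minus strand, *Lpin1* (ENSMUSG00000020593) at chr12:16535669-16610966, minus strand, *Lpin2* (ENSMUSG00000024052) at chr17:71182560-71249817, plus strand and *Lpin3* (ENSMUSG00000027412) at chr2:160880670-160906002, plus strand. *Agpat2* shares 64 exon bases with *Egfl7* on the other strand and *Agpat3* shares 16 with Gm40709. Whether strand was used in the counting is not given in the sources used here, so reads in these short overlaps cannot be assigned to one of the genes.

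The libraries held 18366289 to 23221473 estimated counts each, and the defining markers of each labelled cell type were present in its libraries. Summed over 6 markers, the adipocyte list stood at 8851 to 9691 CPM in control adipocytes, the macrophage list at 16884 to 17057 CPM in control macrophages, the myotube list at 20519 to 25151 CPM in control myotubes and the hepatocyte list at 34318 to 36034 CPM in control hepatocytes. Butyrate lowered 3, 2 and 4 of the 6 own markers in adipocytes, macrophages and myotubes. The myotube libraries stood apart in markers of other cells. Macrophage markers summed to 116 to 304 CPM in control myotubes, 42.6 to 114 CPM under bOHB and 16.5 to 75.5 CPM under butyrate, and all 6 passed the test as lowered under each compound. Hepatocyte markers summed to 0 to 0.0440 CPM in control myotubes, where 5 of the 6 were at 0, to 0 to 22.5 CPM under bOHB and to 29.1 to 523 CPM under butyrate, where 6 of 6 were raised. *Alb*, the albumin gene of hepatocytes, was at 23.5, 432 and 95.3 CPM in myotubes butyrate replicates 1, 2 and 3, which was 0.0685%, 1.26% and 0.278% of its mean level in butyrate-treated hepatocytes. In macrophages, the 3 proliferation markers summed to 1306 to 1342 CPM in the control and 509 to 607 CPM under butyrate, with 3 of 3 lowered, and fibroblast markers to 2308 to 2432 CPM and 1589.6 to 2224 CPM, with 0 of 4 called, while all 6 myotube markers were raised from a sum of 6.78 to 12.6 CPM to 19.7 to 55.4 CPM. Proliferation markers in myotubes summed to 29.5 to 64.5 CPM in the control, 17.3 to 22.2 CPM under bOHB (2 of 3 lowered) and 11.2 to 16.3 CPM under butyrate (3 of 3 lowered). In adipocytes, fibroblast markers summed to 5308 to 6332 CPM and macrophage markers to 294 to 357 CPM in the control, and endothelial markers to 176 to 202 CPM and, with 2 of 4 lowered, 117 to 134 CPM under butyrate. In hepatocytes, endothelial markers summed to 64.6 to 72.1 CPM in the control and 19.7 to 23.3 CPM under butyrate, with 4 of 4 lowered, and markers of Kupffer cells, the liver macrophages, which were not tested, to 2.34 to 2.82 CPM and 0.842 to 1.11 CPM. The part of these other cells in the results below was not tested.

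In control cells, each member had its highest mean level in adipocytes or hepatocytes, the cell types known for making triglyceride. Per kilobase (kb) of the median length of the gene's protein-coding transcripts, the scale on which levels of different genes can be compared, control adipocytes held 426 CPM per kb of *Agpat2*, 251 of *Gpam*, 118 of *Dgat2*, 118 of *Agpat3*, 49.7 of *Lpin1* and 47.6 of *Dgat1*, while *Lpin2* and *Lpin3* were at 4.42 and 3.10. In control hepatocytes the order differed, with *Lpin2* at 180.3 CPM per kb, *Dgat2* at 139, *Agpat2* at 95.8, *Agpat3* at 93.6 and *Gpam* at 82.3, and *Lpin1*, *Dgat1* and *Lpin3* between 7.78 and 16.4. *Agpat3* led in myotubes, at 85.6 CPM per kb, where the other members lay between 5.88 and 15.8. In control macrophages the leading members were *Lpin2* (25.4), *Agpat2* (23.4) and *Agpat3* (23.4 CPM per kb), with *Dgat2* at 1.02 CPM per kb. Some of these orders turned when the length of all merged exons was used. *Agpat2* then led in macrophages (10.6 CPM per kb, against 8.64 for *Lpin2*). In hepatocytes *Gpam* stood level with *Agpat2* (43.4 and 43.4) and above *Agpat3* (28.6). *Dgat1* stood above *Lpin1* in adipocytes (29.4 and 21.1). *Lpin3* stood above *Lpin2* in adipocytes (2.86 and 1.50) and above *Lpin1* and *Dgat1* in hepatocytes (7.18, 6.96 and 6.55).

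**Figure D1:**
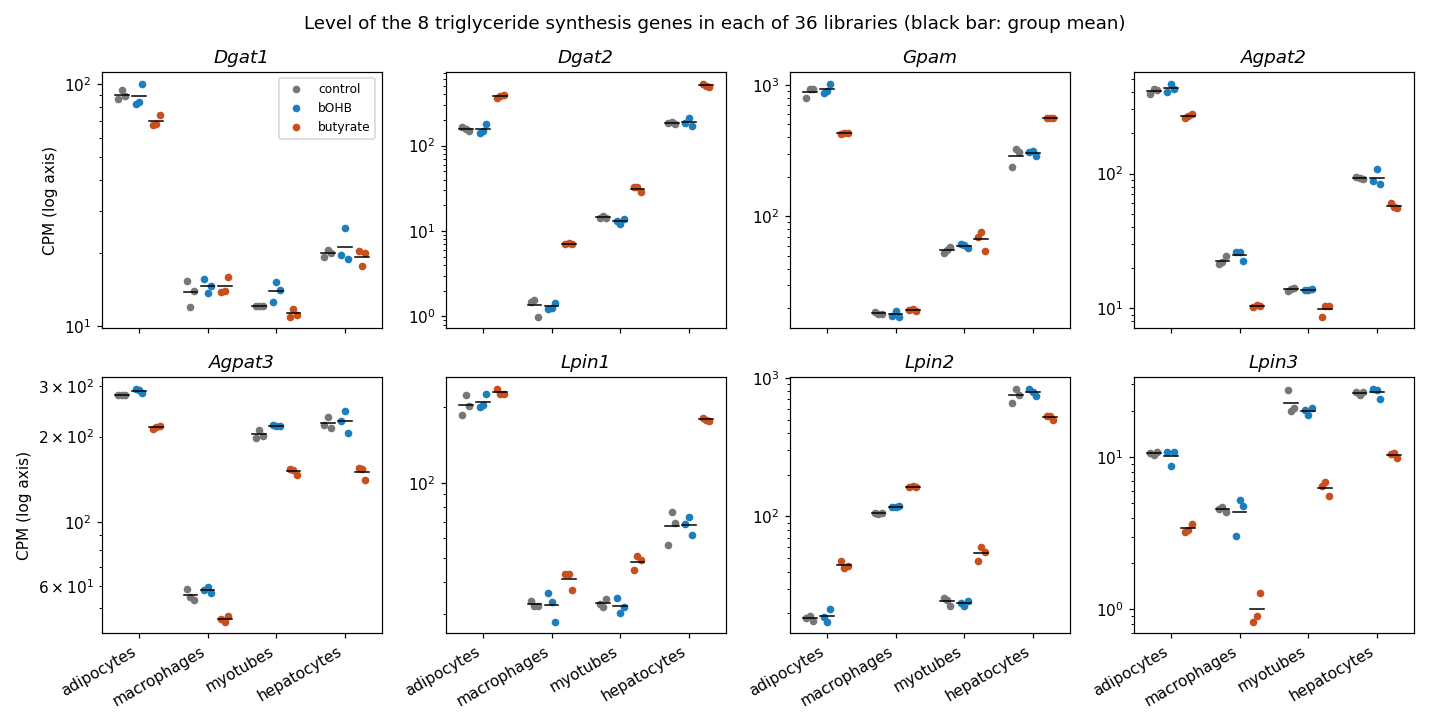
CPM of the 8 genes in all 36 libraries on a log axis, 1 panel per gene, grouped by cell type and treatment, with points for libraries and bars for group means. Control *Dgat2* in macrophages lies between 0.995 and 1.56 CPM and in hepatocytes between 178 and 189 CPM.

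Ordered by control level, 21 of the 24 neighbouring pairs of cell types differed (edgeR adjusted p below 0.05). Across all genes tested, 77.5% differed between control adipocytes and macrophages, 78.2% between adipocytes and myotubes, 81.1% between adipocytes and hepatocytes, 82.2% between macrophages and myotubes, 82.1% between macrophages and hepatocytes and 86.6% between myotubes and hepatocytes. These shares count every gene for a fixed pair of cell types, while the 24 pairs are neighbours in each member's own order. The members' count is therefore not measured like these shares, and nothing particular to the members is read from it. *Gpam* and *Agpat2* were highest in adipocytes, 3.05-fold and 4.45-fold above hepatocytes. *Dgat1* was also highest in adipocytes, 4.48-fold above hepatocytes, and its macrophage and myotube levels did not differ beyond their spread (adjusted p = 0.0922, but 0.0471 with no filter on low counts and 0.0203 without macrophages control replicate 2). *Lpin1* was highest in adipocytes, 3.04-fold above hepatocytes, with myotubes and macrophages not distinguished (adjusted p = 0.895). *Agpat3* followed the order adipocytes, hepatocytes, myotubes and macrophages, but the gap between hepatocytes and myotubes was small (log2 difference 0.13 ± 0.05, adjusted p = 0.0207). The call for that gap was lost with DESeq2 (adjusted p = 0.262), with RLE factors (0.290) and with no filter on low counts (0.115). It was also lost without any of myotubes control replicate 1 (0.0828), myotubes control replicate 3 (0.0562) or hepatocytes control replicate 2 (0.124). *Dgat2* stood slightly higher in hepatocytes than in adipocytes (log2 difference 0.23 ± 0.08, adjusted p = 0.00669), an order that turned with library totals alone (log2 difference -0.01, adjusted p = 0.888), and its levels in myotubes and macrophages were far lower. *Lpin2* was highest in hepatocytes, 7.10-fold above macrophages, and lowest in adipocytes. *Lpin3* was highest in hepatocytes and myotubes, which were not distinguished (adjusted p = 0.0719, but 0.00358 without myotubes control replicate 1 and 0.0200 with limma-voom), and lowest in macrophages.

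Butyrate changed 7 of the 8 members in adipocytes (2 raised, 5 lowered), 6 in macrophages (3 raised, 3 lowered), 7 in myotubes (4 raised, 3 lowered) and 7 in hepatocytes (3 raised, 4 lowered). Among all genes tested, butyrate raised 30.7% and lowered 30.3% in adipocytes, raised 31.9% and lowered 33.2% in macrophages, raised 33.1% and lowered 33.4% in myotubes and raised 31.0% and lowered 32.4% in hepatocytes. The members were thus called somewhat more often than genes at large, with so few genes that nothing particular to them can be read from the counts. Their median log2 fold change was -0.37, 0.08, 0.08 and -0.29 in adipocytes, macrophages, myotubes and hepatocytes, against 0, 0, 0 and -0.01 over all genes. The genes are taken up below in the order of the enzymatic steps, with log2 fold changes ± SE from edgeR and p-values adjusted over all 15340 genes. Whether treated and control libraries overlapped is a description without a test. The share of all genes whose groups did not overlap is not given here, so nothing particular to the members can be read from it.

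**Figure D2:**
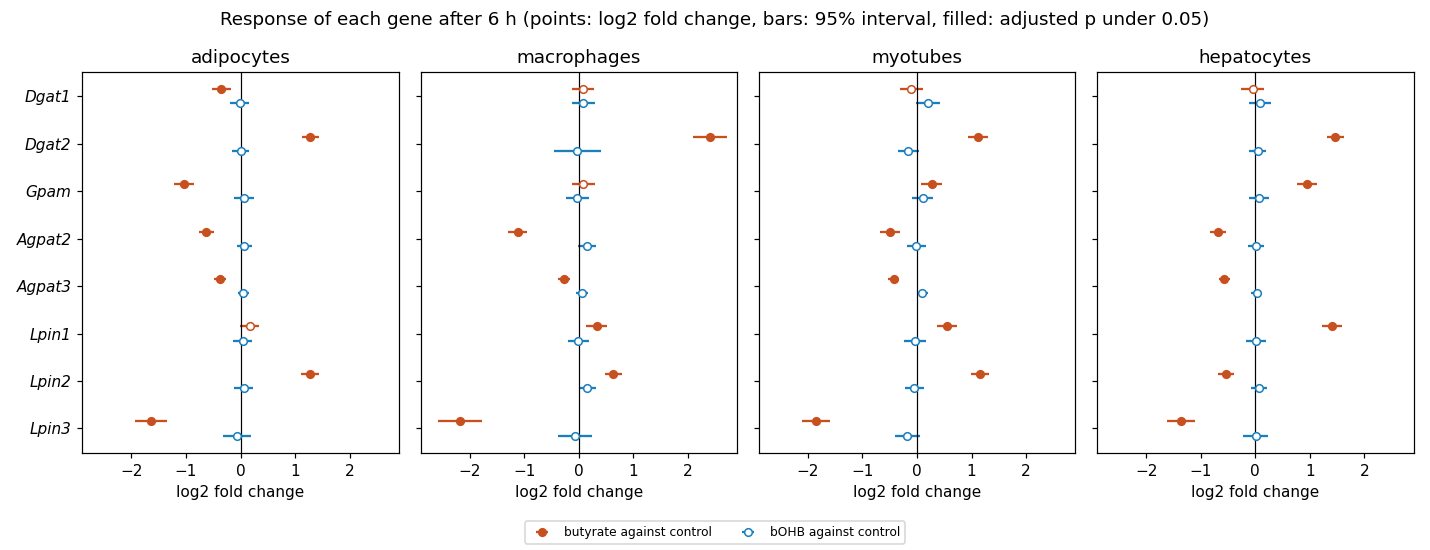
Log2 fold change of each gene against control in each cell type with its 95% interval, for butyrate and bOHB (edgeR fit over 36 libraries, 3 per group). Butyrate values reach from -2.18 (*Lpin3* in macrophages) to 2.40 (*Dgat2* in macrophages), while every bOHB interval lies between -0.46 and 0.41.

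*Gpam*, the enzyme of the first acylation, fell in adipocytes and rose in hepatocytes. In adipocytes it was at 793, 924 and 931 CPM in the control and 426, 430.1 and 434 CPM under butyrate. All 3 butyrate libraries lay below all 3 controls, and the level fell 2.05-fold (log2 fold change -1.04 ± 0.09, adjusted p = 2.86e-11). In hepatocytes it went from 239, 323 and 307 CPM to 558, 558 and 561 CPM, again without overlap, and rose 1.93-fold (log2 fold change 0.95 ± 0.09, adjusted p = 1.48e-10). Butyrate thus brought the hepatocyte level of *Gpam* above the adipocyte level, the reverse of the control order. The adipocyte minus hepatocyte difference of the responses was -1.99 ± 0.13 (log2, adjusted p = 2.52e-13). In macrophages *Gpam* stood at 18.7, 18.0 and 18.1 CPM in the control and 19.4, 19.7 and 19.1 CPM under butyrate and did not pass the test although the groups did not overlap (log2 fold change 0.08 ± 0.10, adjusted p = 0.508). It did pass with library totals alone (log2 fold change 0.31, adjusted p = 0.00753) and in a fit of the macrophage libraries alone (0.18, adjusted p = 0.0128). In myotubes it was at 52.9, 55.1 and 58.3 CPM in the control and 70.1, 75.5 and 54.9 CPM under butyrate, with overlapping groups. The myotube rise was called (log2 fold change 0.27 ± 0.09, adjusted p = 0.0131), but not without butyrate replicate 2 (0.18, adjusted p = 0.119), without control replicate 1 (0.24, adjusted p = 0.0541) or with no filter on low counts (0.21, adjusted p = 0.0504). Butyrate replicate 2 was the myotube library with the most *Alb*, and 1.26% of the hepatocyte level of *Gpam* equals 7.04 CPM. With butyrate replicate 1 as the only butyrate library, a setting chosen after the data were seen, the value was 0.37, and its adjusted p of 0.00626 assumes that this 1 library varies like the other groups.

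The acyltransferases of the next step, *Agpat2* and *Agpat3*, fell in every cell type. *Agpat2* went from 392, 425 and 416 CPM to 256, 265 and 276 CPM in adipocytes, where it is the more abundant of the pair per kb. In macrophages it went from 21.4, 22.0 and 24.4 CPM to 10.3, 10.6 and 10.4 CPM. None of the butyrate libraries of either cell type reached a control library. The fall was 1.54-fold in adipocytes (log2 fold change -0.63 ± 0.07, adjusted p = 2.87e-09) and 2.17-fold in macrophages (log2 fold change -1.12 ± 0.09, adjusted p = 1.47e-12). In myotubes *Agpat2* went from 13.4, 14.0 and 14.2 CPM to 8.71, 10.4 and 10.4 CPM (log2 fold change -0.49 ± 0.09, adjusted p = 2.21e-05). In hepatocytes it went from 93.9, 92.4 and 90.8 CPM to 60.5, 56.7 and 55.1 CPM (log2 fold change -0.68 ± 0.07, adjusted p = 1.40e-09). These groups did not overlap either. *Agpat2* fell more in macrophages than in any of the others, with an adipocyte minus macrophage difference of the responses of 0.49 ± 0.11 (log2, adjusted p = 0.000705), and with macrophage minus myotube and macrophage minus hepatocyte differences of -0.63 ± 0.13 (adjusted p = 0.000159) and -0.43 ± 0.11 (adjusted p = 0.00228).

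*Agpat3*, whose enzyme favours polyunsaturated acyl chains, fell as well. It was at 280.1, 281 and 279 CPM in control adipocytes and 212, 216 and 218 CPM under butyrate (log2 fold change -0.38 ± 0.05, adjusted p = 1.63e-07). In macrophages it was at 58.4, 54.9 and 53.6 CPM and 46.0, 44.8 and 47.1 CPM (log2 fold change -0.28 ± 0.05, adjusted p = 5.37e-05), and with library totals alone this fall was not called (-0.05, adjusted p = 0.359). The butyrate libraries of both cell types lay below their controls. In myotubes, where *Agpat3* was the most abundant member per kb, it went from 198, 211 and 202 CPM to 154, 153 and 147 CPM (log2 fold change -0.43 ± 0.05, adjusted p = 1.95e-08). In hepatocytes it went from 219, 234 and 214 CPM to 155, 154 and 141 CPM (log2 fold change -0.57 ± 0.05, adjusted p = 5.42e-11), a 1.48-fold fall with no overlap.

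The lipins moved apart. *Lpin3* fell in all 4 cell types. It went from 10.6, 10.3 and 10.8 CPM to 3.20, 3.34 and 3.63 CPM in adipocytes, a 3.11-fold fall (log2 fold change -1.64 ± 0.14, adjusted p = 3.78e-11). In macrophages it went from 4.58, 4.69 and 4.33 CPM to 0.826, 0.897 and 1.27 CPM, a 4.52-fold fall (log2 fold change -2.18 ± 0.20, adjusted p = 5.58e-11). The macrophage butyrate values rest on 19 to 30 counts per library. In myotubes it went from 27.6, 19.9 and 20.9 CPM to 6.43, 6.88 and 5.55 CPM, a 3.62-fold fall (log2 fold change -1.85 ± 0.13, adjusted p = 1.04e-13). In hepatocytes it went from 26.9, 25.7 and 27.0 CPM to 10.4, 10.6 and 9.85 CPM, a 2.57-fold fall (log2 fold change -1.36 ± 0.12, adjusted p = 3.83e-11). Butyrate and control libraries did not overlap in any cell type.

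*Lpin2* rose in adipocytes, macrophages and myotubes and fell in hepatocytes, the cells in which its control level was highest. In adipocytes it went from 18.4, 19.1 and 17.7 CPM to 47.6, 42.2 and 43.8 CPM, a 2.42-fold rise (log2 fold change 1.27 ± 0.08, adjusted p = 5.23e-14). In macrophages it went from 107, 104 and 107 CPM to 164, 165 and 164 CPM, a 1.55-fold rise (log2 fold change 0.63 ± 0.08, adjusted p = 1.22e-08). In myotubes it went from 25.9, 25.0 and 22.7 CPM to 47.6, 59.9 and 55.7 CPM, a 2.22-fold rise (log2 fold change 1.15 ± 0.08, adjusted p = 2.97e-13). Butyrate replicate 1, which had the lowest *Alb* of the 3, held 47.6 CPM, and 1.26% of the hepatocyte level, the share of *Alb* in replicate 2, equals 6.54 CPM. In hepatocytes *Lpin2* went from 662, 835 and 757 CPM to 527, 528 and 501 CPM, a 1.45-fold fall (log2 fold change -0.53 ± 0.07, adjusted p = 1.96e-07). None of these groups overlapped. The hepatocyte response was below that of adipocytes by 1.81 ± 0.11 (log2, adjusted p = 9.35e-14), below that of macrophages by 1.17 ± 0.11 (adjusted p = 1.84e-10) and below that of myotubes by 1.68 ± 0.11 (adjusted p = 2.35e-13).

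*Lpin1* rose the most in hepatocytes. It went there from 56.5, 76.2 and 69.1 CPM to 181, 179 and 177 CPM, a 2.66-fold rise with no overlap (log2 fold change 1.41 ± 0.09, adjusted p = 1.57e-14). In macrophages it went from 33.7, 32.1 and 32.2 CPM to 43.0, 43.1 and 37.1 CPM (log2 fold change 0.33 ± 0.09, adjusted p = 0.00282), and in myotubes from 32.8, 31.8 and 34.4 CPM to 44.9, 51.1 and 49.1 CPM (log2 fold change 0.55 ± 0.09, adjusted p = 6.86e-06). All butyrate libraries of these cells lay above their controls. In adipocytes, where its control level was highest, *Lpin1* was at 186, 224 and 203 CPM in the control and 237, 225 and 226 CPM under butyrate, and this small difference, again without overlap, did not pass the test (log2 fold change 0.17 ± 0.09, adjusted p = 0.0927). It did pass with library totals alone (0.26, adjusted p = 0.00746), in a fit of the adipocyte libraries alone (0.20, adjusted p = 0.0272) and without adipocytes control replicate 2 (0.24, adjusted p = 0.0297). Against hepatocytes, the response was lower by a log2 difference of -1.24 ± 0.12 in adipocytes (adjusted p = 1.80e-09), -1.08 ± 0.13 in macrophages (adjusted p = 5.12e-08) and -0.86 ± 0.13 in myotubes (adjusted p = 2.22e-06).

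Within the lipin family, the make-up of the transcripts differed between control and butyrate. In hepatocytes *Lpin2* made up 88.2% ± 0.265 (SD, n = 3) of the lipin CPM per kb in the control and 72.8% ± 0.395 under butyrate, while the share of *Lpin1* was 7.99% ± 0.319 and 25.5% ± 0.421. The sum of the 3 lipins was 204 ± 23.0 and 171 ± 4.34 CPM per kb in these cells. In adipocytes *Lpin1* held the largest share, 86.8% ± 1.01 in the control and 82.7% ± 0.401 under butyrate, while *Lpin2* went from 7.74% ± 0.545 to 15.8% ± 0.463. With the length of all merged exons the *Lpin1* share there was 82.8% and 83.9%, so its direction depends on the length used. In macrophages *Lpin2* led, with 73.2% ± 0.462 and 79.3% ± 1.19. Control myotubes held a mixed set, 39.1% ± 3.09 *Lpin1*, 32.3% ± 3.49 *Lpin3* and 28.6% ± 1.75 *Lpin2*, and under butyrate *Lpin3* was at 6.94% ± 0.873 and *Lpin2* at 48.9% ± 1.52. With the length of all merged exons the control myotube shares were 53.0% *Lpin3*, 29.7% *Lpin1* and 17.4% *Lpin2*, so the leading lipin there depends on the length used, and *Lpin3* under butyrate was at 15.3%. In butyrate-treated myotubes *Lpin1* then stood above *Lpin2* (5.00 and 4.45 CPM per kb), so their order also depends on the length used. These shares are descriptions without a test.

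**Figure D3:**
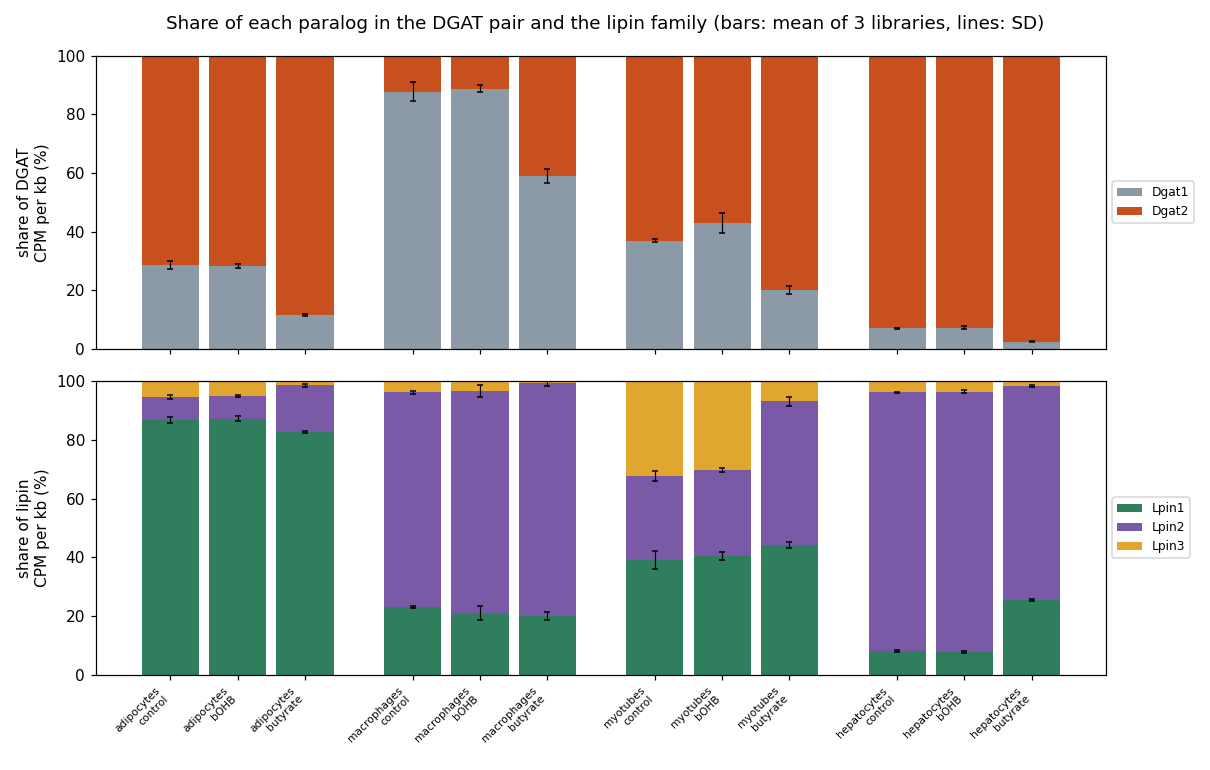
Share in percent of the DGAT (upper panel) and lipin (lower panel) CPM per kb held by each gene, as stacked bars of group means with SD over 3 libraries in control, bOHB and butyrate of each cell type. The *Dgat2* share in macrophages goes from 12.3% in the control to 41.0% under butyrate, and the *Lpin3* share in myotubes from 32.3% to 6.94%.

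*Dgat2*, one of the enzymes of the last step, rose in every cell type. In hepatocytes it went from 182, 189 and 178 CPM to 533, 496 and 492 CPM, a 2.77-fold rise (log2 fold change 1.47 ± 0.08, adjusted p = 1.20e-16). In adipocytes it went from 163, 155 and 150.1 CPM to 361, 384 and 390.4 CPM, a 2.43-fold rise (log2 fold change 1.28 ± 0.08, adjusted p = 4.96e-15). Each butyrate library of these lipid-storing cells exceeded every control. In macrophages *Dgat2* was near the filter in the control, at 1.48, 1.56 and 0.995 CPM (23 to 35 counts per library), and reached 7.00, 7.29 and 6.98 CPM (161 to 187 counts). The macrophage rise was 5.28-fold (log2 fold change 2.40 ± 0.15, adjusted p = 1.31e-14), the highest of the 4, though its level stayed below those of the other 3 cell types. In myotubes it went from 14.4, 14.9 and 14.2 CPM to 32.7, 32.8 and 28.5 CPM, a 2.16-fold rise (log2 fold change 1.11 ± 0.09, adjusted p = 4.01e-12). Groups did not overlap in either cell type. Butyrate replicate 1, which had the lowest *Alb* of the 3, held 32.7 CPM, and 1.26% of the hepatocyte level of *Dgat2* equals 6.39 CPM. The adipocyte minus macrophage difference of the responses was -1.12 ± 0.18 (log2, adjusted p = 7.49e-06), and the macrophage response exceeded that of myotubes by 1.29 ± 0.18 (adjusted p = 1.09e-06) and that of hepatocytes by 0.93 ± 0.18 (adjusted p = 6.99e-05).

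*Dgat1*, the other enzyme of that step, fell in adipocytes and did not pass the test in the other 3 cell types. In adipocytes it went from 86.8, 94.0 and 88.7 CPM to 67.6, 68.5 and 74.4 CPM, a 1.28-fold fall without overlap (log2 fold change -0.36 ± 0.08, adjusted p = 0.000560). In macrophages it was at 15.4, 12.0 and 14.1 CPM in the control and 13.9, 14.0 and 16.0 CPM under butyrate (log2 fold change 0.08 ± 0.10, adjusted p = 0.521), and with library totals alone a rise was called (0.30, adjusted p = 0.00793). In myotubes *Dgat1* was at 12.2, 12.2 and 12.1 CPM and 11.0, 11.8 and 11.2 CPM (log2 fold change -0.10 ± 0.11, adjusted p = 0.402). The macrophage groups overlapped, and the myotube butyrate libraries lay slightly below their controls. In hepatocytes it was at 19.3, 20.7 and 20.1 CPM and 20.4, 17.7 and 20.0 CPM (log2 fold change -0.05 ± 0.10, adjusted p = 0.694). The hepatocyte groups overlapped, and the 95% interval of that difference was -0.26 to 0.16. The adipocyte response differed from that of macrophages (-0.43 ± 0.13, adjusted p = 0.0104), while its differences from myotubes (-0.25 ± 0.14, adjusted p = 0.147) and hepatocytes (-0.31 ± 0.13, adjusted p = 0.0641) did not pass. The share of *Dgat2* in the DGAT CPM per kb was 71.3% ± 1.39 (SD, n = 3) in control adipocytes and 88.5% ± 0.350 under butyrate, 12.3% ± 3.26 and 41.0% ± 2.28 in macrophages, 63.0% ± 0.597 and 79.8% ± 1.25 in myotubes and 92.9% ± 0.229 and 97.4% ± 0.167 in hepatocytes. *Dgat1* thus stayed the more abundant DGAT transcript per kb in macrophages, control and butyrate, and was the less abundant in the other cell types. With the length of all merged exons, however, it made up 51.9% of the DGAT CPM per kb in bOHB-treated myotubes, against 48.1% for *Dgat2*. The sum of both was 166 ± 4.60 and 324 ± 13.2 CPM per kb in control and butyrate-treated adipocytes, and 149 ± 4.64 and 394 ± 17.7 in hepatocytes.

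The butyrate response differed between the 4 cell types for all 8 members (edgeR F test over 3 differences of responses, adjusted p below 0.05), beside 74.5% of all genes tested. The lowest adjusted p-values were those of *Lpin2* (1.74e-14), *Gpam* (7.51e-13) and *Lpin1* (2.37e-09), and the highest those of *Dgat1* (0.0244) and *Lpin3* (0.0121). For *Dgat1* the call was lost without any of adipocytes control replicate 2 (0.0694), adipocytes butyrate replicate 1 (0.0663), adipocytes butyrate replicate 2 (0.0588) or macrophages control replicate 2 (0.0576). The call for *Lpin3* was lost with limma-voom (0.0532) and library totals alone (0.0557), and that for *Agpat3* with no filter on low counts (0.259). The bOHB response differed between cell types for 0 of the 8, beside 0.978% of all genes.

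**Figure D4:**
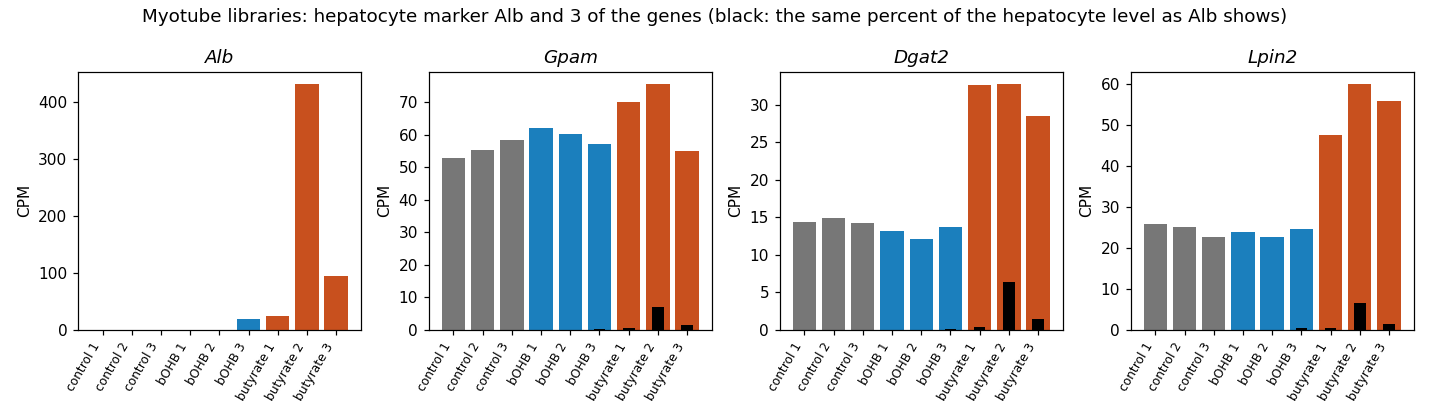
CPM of *Alb*, *Gpam*, *Dgat2* and *Lpin2* as 1 bar for each of the 9 myotube libraries, with inner black bars for the CPM that the library's percentage of the hepatocyte *Alb* level would make of the hepatocyte level of that gene. The black bars reach 7.04, 6.39 and 6.54 CPM in butyrate replicate 2, where the library itself holds 75.5 CPM of *Gpam*, 32.8 of *Dgat2* and 59.9 of *Lpin2*.

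Under bOHB, 0 of the 8 members were called in any cell type by edgeR, limma-voom or DESeq2, and none of the 32 values had an unadjusted edgeR p below 0.05. bOHB changed 0.00652% of all genes tested in adipocytes, 0% in macrophages, 2.91% in myotubes and 0.00652% in hepatocytes, so the members' count was near the background. The myotube value was 446 of 15340 genes, and it depended on the setting, with 0 of 12964 in a fit of the myotube libraries alone and 895 of 32246 with no filter on low counts. The log2 fold changes lay between -0.18 and 0.20, and all 95% intervals between -0.46 and 0.41. *Dgat2* in adipocytes was at 140.0, 150.0 and 181 CPM with bOHB, around its control range of 150.1 to 163 CPM. In hepatocytes it was at 184, 209.9 and 171 CPM, with a 95% interval of the log2 fold change of -0.11 to 0.20. *Gpam* was at 866, 895 and 1023 CPM in adipocytes with bOHB, where butyrate lowered it. The lowest adjusted p was that of *Dgat1* in myotubes, which was at 12.6, 15.2 and 14.1 CPM with bOHB and 12.2, 12.2 and 12.1 CPM in the control (log2 fold change 0.20 ± 0.10, adjusted p = 0.401, 95% interval -0.01 to 0.41). *Lpin2* in macrophages was at 117, 117 and 118 CPM, above all 3 controls at 104 to 107 CPM, but this difference did not pass the test (log2 fold change 0.15 ± 0.08, adjusted p = 1.00).

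Compared directly at the same 5 mM and 6 h, the pair of compounds, which differ by a hydroxyl group, gave different levels of 7 members in adipocytes, 6 in macrophages, 7 in myotubes and 7 in hepatocytes, out of 32 comparisons. Among all genes, 59.5%, 64.7%, 66.0% and 63.5% differed between butyrate and bOHB in these cell types. *Dgat2* was higher with butyrate by 1.27 ± 0.08 (log2, adjusted p = 6.40e-15) in adipocytes, 2.43 ± 0.15 (adjusted p = 1.24e-14) in macrophages, 1.27 ± 0.09 (adjusted p = 2.74e-13) in myotubes and 1.43 ± 0.08 (adjusted p = 2.23e-16) in hepatocytes. *Lpin3* was lower with butyrate in all 4 cell types, by a log2 difference from -2.11 ± 0.20 in macrophages to -1.37 ± 0.12 in hepatocytes. The comparisons that did not pass were *Lpin1* in adipocytes (0.13, 95% interval -0.05 to 0.30, adjusted p = 0.215), *Dgat1* in macrophages (-0.21 to 0.20, adjusted p = 0.987) and hepatocytes (-0.34 to 0.06, adjusted p = 0.225), and *Gpam* in macrophages (-0.11 to 0.32, adjusted p = 0.375) and myotubes (-0.03 to 0.35, adjusted p = 0.130). *Dgat1* in myotubes was lower with butyrate than with bOHB (log2 fold change -0.30 ± 0.10, adjusted p = 0.0119), a call that was lost without bOHB replicate 2 (-0.24, adjusted p = 0.0743) and with library totals alone (-0.11, adjusted p = 0.363). With library totals alone, *Lpin1* in adipocytes (0.25, adjusted p = 0.00971), *Dgat1* in macrophages (0.22, adjusted p = 0.0489) and *Gpam* in macrophages (0.34, adjusted p = 0.00382) were called higher with butyrate than with bOHB, the last also in a fit of the macrophage libraries alone (0.20, adjusted p = 0.00539). *Gpam* in myotubes was called in this comparison with DESeq2 (0.22, adjusted p = 0.0375), with RLE factors (0.22, adjusted p = 0.0419) and with library totals alone (0.36, adjusted p = 0.000821). It was also called in a fit of the myotube libraries alone (0.25, adjusted p = 0.0485) and without butyrate replicate 3 (0.29, adjusted p = 0.00545). Both comparisons of butyrate share the butyrate libraries, so they are not independent of each other.

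Around these enzymes stand 31 genes of the same and neighbouring steps, from acyl-CoA synthesis to droplet assembly, of which 30 were tested (*Gpat2* was not). Butyrate raised 14 and lowered 8 of them in adipocytes, raised 18 and lowered 5 in macrophages, raised 17 and lowered 7 in myotubes and raised 16 and lowered 6 in hepatocytes. As given above, it raised 30.7%, 31.9%, 33.1% and 31.0% of all genes tested in these cell types and lowered 30.3%, 33.2%, 33.4% and 32.4%. The raised counts include *Mogat2* in each cell type, which passed the filter on low counts mainly through its butyrate libraries and so counts for nothing here. Without it the raised genes were 13 in adipocytes, 17 in macrophages, 16 in myotubes and 15 in hepatocytes, out of 29 tested. The median log2 fold change of these 29 was -0.03, 0.28, 0.31 and 0.23 in the same order, beside 0, 0, 0 and -0.01 over all genes (with *Mogat2* the adipocyte median was 0.05, so its sign turned). Among the acylglycerolphosphate acyltransferases outside the members, *Agpat4* was one of the 2 raised pathway genes with the smallest p in 3 cell types. It rose from 9.28 ± 1.40 to 28.5 ± 2.54 CPM (log2 fold change 1.61 ± 0.12, adjusted p = 1.42e-12) in adipocytes, from 12.9 ± 1.21 to 27.5 ± 1.04 CPM (log2 fold change 1.09 ± 0.12, adjusted p = 2.42e-09) in macrophages and from 12.3 ± 0.529 to 38.7 ± 6.43 CPM (log2 fold change 1.65 ± 0.12, adjusted p = 3.98e-13) in myotubes, while *Agpat2* and *Agpat3* fell in the same libraries. *Ctdnep1*, the phosphatase that activates lipins, fell from 92.6 ± 4.86 to 58.8 ± 0.496 CPM (log2 fold change -0.66 ± 0.05, adjusted p = 5.75e-12) in macrophages, from 81.0 ± 3.63 to 53.8 ± 0.552 CPM (log2 fold change -0.59 ± 0.05, adjusted p = 8.53e-11) in myotubes and from 93.2 ± 5.65 to 46.3 ± 1.92 CPM (log2 fold change -1.01 ± 0.06, adjusted p = 5.53e-16) in hepatocytes. Its partner *Cnep1r1*, the other listed gene of this phosphatase complex, was called as raised in adipocytes, macrophages and myotubes and was not called in hepatocytes. *Gk*, which makes glycerol 3-phosphate from glycerol, rose from 30.6 ± 0.981 to 57.3 ± 1.49 CPM (log2 fold change 0.90 ± 0.07, adjusted p = 4.78e-13) in macrophages and from 43.3 ± 2.10 to 116 ± 4.19 CPM (log2 fold change 1.42 ± 0.07, adjusted p = 1.01e-17) in hepatocytes.

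The other named pathway genes act in droplet assembly, acyl-CoA supply and the making of neutral lipids. *Ldaf1*, a partner of seipin in droplet assembly, rose from 23.9 ± 0.897 to 45.8 ± 3.96 CPM (log2 fold change 0.94 ± 0.07, adjusted p = 9.33e-13) in adipocytes and from 12.0 ± 0.300 to 23.8 ± 0.882 CPM (log2 fold change 0.98 ± 0.08, adjusted p = 2.26e-12) in myotubes. *Fitm2*, which acts in the budding of droplets from the endoplasmic reticulum, fell from 192 ± 7.95 to 60.9 ± 0.835 CPM (log2 fold change -1.66 ± 0.07, adjusted p = 4.56e-18) in adipocytes. *Tmem68*, an acyltransferase that makes triglyceride without DGAT enzymes, fell from 17.0 ± 1.49 to 7.24 ± 0.648 CPM (log2 fold change -1.24 ± 0.10, adjusted p = 1.71e-12) in adipocytes and from 13.1 ± 1.45 to 4.89 ± 0.182 CPM (log2 fold change -1.43 ± 0.10, adjusted p = 3.22e-13) in myotubes. In hepatocytes the acyl-CoA synthetases parted, with *Acsl1* rising from 121 ± 11.0 to 359 ± 13.0 CPM (log2 fold change 1.57 ± 0.07, adjusted p = 1.76e-18) and *Acsl5* falling from 477 ± 39.0 to 249.6 ± 6.89 CPM (log2 fold change -0.94 ± 0.08, adjusted p = 1.73e-11). *Soat1*, which makes cholesteryl esters, fell from 813 ± 10.2 to 501 ± 2.56 CPM (log2 fold change -0.70 ± 0.06, adjusted p = 6.23e-12) in macrophages. Under bOHB, edgeR called 0 of the 30 in adipocytes, macrophages and hepatocytes (2, 0 and 1 at an unadjusted p below 0.05, of which 1 in adipocytes was *Mogat2*) and 1 in myotubes (2 at an unadjusted p below 0.05), where 2.91% of all genes were called, against at most 0.00652% in the other cell types. That gene was *Soat1*, which went from 66.4 ± 5.23 to 54.9 ± 2.04 CPM (log2 fold change -0.27 ± 0.06, adjusted p = 0.00674). The call was lost without myotubes control replicate 1 (-0.21, adjusted p = 0.156), without myotubes bOHB replicate 1 (-0.24, adjusted p = 0.0686) and in a fit of the myotube libraries alone (-0.31, adjusted p = 0.298). The macrophage markers were lower in the same bOHB myotube libraries, as given above, and control macrophages held 813 CPM of *Soat1*. The part of the macrophage RNA in that value was not tested.

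**Figure D5:**
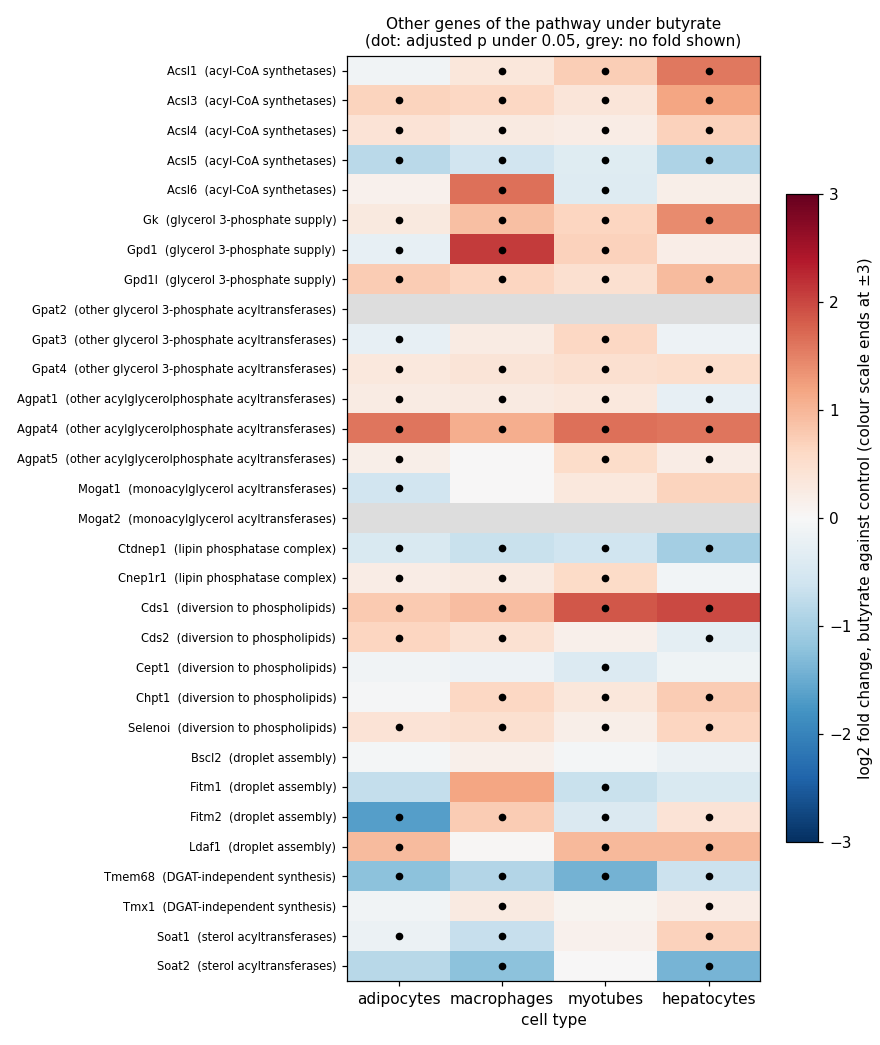
Log2 fold change under butyrate of the 31 other pathway genes (lines) in each cell type (columns) as a colour map whose scale ends at ±3, with a dot where edgeR called the gene (adjusted p below 0.05) and grey for *Gpat2*, which was not tested, and *Mogat2*, whose control counts were few. *Agpat4* is raised and *Ctdnep1* and *Tmem68* are lowered in all 4 columns.

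Over the 12 group means of log2 CPM, each member had genes whose pattern was close to its own. The values below are Pearson's r as a description, and points of the same cell type share medium and isolation. *Gpam* was closest to *Mpc2* (0.987), *Pcx* (0.987) and *Adm* (0.985). *Agpat2* was closest to *Sil1* (0.988), *Mccc1* (0.983) and *Pfkl* (0.983) and *Agpat3* to *Mfn2* (0.985), *Cxcl13* (0.981) and *Chchd3* (0.978). For the lipins, the nearest were *Sucnr1* (0.995), *Pim3* (0.986) and *3930402G23Rik* (0.985) for *Lpin1*, *Zdhhc9* (0.994), *Elovl7* (0.992) and *Zdhhc12* (0.988) for *Lpin2* and *Tsr1* (0.986), *Tnfrsf12a* (0.979) and *Get4* (0.979) for *Lpin3*. *Dgat1* was closest to *A2m* (0.993), *Cox8a* (0.993) and *Derl1* (0.990) and *Dgat2* to *Lgr4* (0.991), *Dgcr6* (0.989) and *Fam162a* (0.985). Among the members themselves, the closest pairs were *Dgat1* with *Agpat2* (0.938), *Dgat2* with *Gpam* (0.932) and *Gpam* with *Lpin1* (0.905), while *Dgat1* and *Dgat2* had 0.600.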

How the data were processed

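RNA was measured in 36 libraries (BGISEQ-500, paired-end, random-primed cDNA), 3 for each of 12 groups named from the labels. The deposited values are estimated counts per gene. The authors made them with Salmon 1.2.1 against the mouse genome GRCm38.p6 and GENCODE M25 and, per the study's methods, imported them with tximport, which used transcript length and library size for scaling, and summed them per gene. Library totals in the deposited file still differ, from 18366289 to 23221473, so library size was taken from those totals with TMM factors. Salmon splits reads among transcripts by likelihood, so counts of similar genes are estimates. Gene symbols and lengths came from GENCODE M21, which names 54094 of the 54347 genes. Counts were rounded and scaled by TMM, and 12 group means were fitted to all libraries at once with edgeR 4.0.16 (R 4.3.3), using its quasi-likelihood F test. P-values were adjusted by Benjamini-Hochberg over the 15340 genes with CPM above 1 in at least 6 libraries, and an adjusted p below 0.05 was called. The SE is the log2 fold change divided by the square root of F. CPM per kb used the median length of protein-coding transcripts.

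Replicates of a group differed by more than counting noise (chi-square per degree of freedom 2.61 to 38.1), so no library was counted as a copy of another. With 3 against 3 libraries, an exact permutation test could not go below 0.1, so the fit across genes was used. The alternatives were limma-voom (limma 3.58.1), DESeq2 1.42.0, RLE factors, library totals alone, other filters, fits within a cell type, a replicate block and leaving out each library. The code was tested on simulated counts. Named genes were the 8 members, in each butyrate comparison the 2 raised and 2 lowered pathway genes with the smallest p, in each bOHB comparison every called one, and for each member the 3 genes with the highest Pearson r. *Cnep1r1* was named beside *Ctdnep1* from the same list. The members and lists were chosen with earlier results of these data known. Promoters came from RefSeq, lipin codons from GENCODE M21 and primers from the study's supplement. In the source field, the butyrate libraries are called butyric acid but carry the abbreviation bOHB; their titles and treatment labels say butyric acid, which was used.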

Additional observations from a re-analysis of the deposited data

Results flagged for a closer look

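For all 8 members the butyrate response differed between the 4 cell types by an edgeR F test of the differences themselves, and beside them 74.5% of all genes tested did so. The adjusted p was 7.51e-13 for *Gpam*, 0.000276 for *Agpat2*, 0.00804 for *Agpat3*, 2.37e-09 for *Lpin1*, 1.74e-14 for *Lpin2*, 0.0121 for *Lpin3*, 0.0244 for *Dgat1* and 3.35e-06 for *Dgat2*. As given above, the calls for *Dgat1*, *Lpin3* and *Agpat3* were lost in some alternative runs, up to adjusted p = 0.0694, 0.0557 and 0.259. *Gpam* and *Lpin2* changed direction, with log2 fold changes in adipocytes and hepatocytes of -1.04 ± 0.09 and 0.95 ± 0.09 for *Gpam* and 1.27 ± 0.08 and -0.53 ± 0.07 for *Lpin2*. For the other members with calls in every cell type the direction was the same and the size differed, as for *Lpin3* between macrophages (-2.18 ± 0.20) and hepatocytes (-1.36 ± 0.12), with a macrophage minus hepatocyte difference of -0.81 ± 0.24 (adjusted p = 0.00653). The macrophage butyrate values of *Lpin3* rest on 19 to 30 counts per library. *Agpat3* fell by 0.28 ± 0.05 in macrophages and by 0.57 ± 0.05 in hepatocytes on the log2 scale, with a macrophage minus hepatocyte difference of 0.29 ± 0.08 (adjusted p = 0.00198). With library totals alone the macrophage fall of *Agpat3* was not called (log2 fold change -0.05, adjusted p = 0.359). Cell type, medium, isolation, substrain and site cannot be told apart in these differences.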

How the results depend on the processing

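No member value changed direction among called values in any alternative run, and the counts of members called stayed within 1.5 times. Of 296 butyrate values under other settings, 288 kept their side of the threshold, 2 lost the call, 5 gained it and 1 moved, and leaving out 1 library kept 189 of 192. When 1 library at a time was left out, the counts were 7 to 8 in adipocytes, 6 in macrophages, 6 to 7 in myotubes and 7 in hepatocytes, 0 throughout for bOHB, 7, 6, 6 to 8 and 7 for butyrate against bOHB, 7 to 8 for differences between cell types and 20 to 22 for control neighbours. Under the other settings the counts were 7 to 8, 6 to 7, 6 to 7 and 7 for butyrate, 0 for bOHB, 7 to 8, 6 to 8, 7 to 8 and 7 for butyrate against bOHB, 7 to 8 for differences between cell types and 20 to 22 for control neighbours. Library totals alone moved the all-gene median of the log2 fold change by 0.20 in macrophages and 0.13 in myotubes. The raised share of called genes went from 49.0% to 66.7% in macrophages, from 49.8% to 61.8% in myotubes and from 50.4% to 58.8% in adipocytes. For the calls lost or gained, the cause was not tested. The sources do not say whether replicate numbers pair the samples. Same-numbered libraries did not deviate together in every pair, which cannot settle the question. With the replicate number as a block the counts were 7, 6, 7 and 7 under butyrate, 0 under bOHB, 7, 6, 7 and 7 between the compounds, and 8 and 0 for differences between cell types, the same as without it. The block lies within cell type, so it gave no value for control levels between cell types. Other transcript lengths moved 100 of 120 shares of the DGAT and lipin families by 1 SD or more. Depth limits *Dgat2* and *Lpin3* in macrophages, which had the fewest counts.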

Other observations

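Chosen after their values were seen, 2 more genes of the pathway are given here. *Mogat2*, which makes diacylglycerol from monoacylglycerol and so enters the route without a lipin, had a group mean of 1.14 CPM in control and 10.7 CPM in butyrate libraries in hepatocytes, 0.0740 CPM in control and 2.01 CPM in butyrate libraries in myotubes, 0.138 CPM in control and 1.79 CPM in butyrate libraries in macrophages and 0.0570 CPM in control and 1.12 CPM in butyrate libraries in adipocytes. It passed the filter on low counts mainly through the butyrate libraries and its control counts were few, so these values are given without a test or a fold. *Gpd1*, which makes glycerol 3-phosphate from dihydroxyacetone phosphate, went from 936 to 794 CPM (adjusted p = 0.0352) in adipocytes, where it fell, and from 15.9 to 25.5 CPM (adjusted p = 4.90e-06) in myotubes, where it rose. In macrophages it was called as raised from few control counts, at 0.326 CPM in control and 1.42 CPM in butyrate libraries (adjusted p = 2.02e-06), and no fold is given. In hepatocytes it went from 165 to 188 CPM (adjusted p = 0.0935) and was not called. The difference between these responses was not tested.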
